A study of Mus musculus with 8 samples.

Results

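The genes described here encode 10 cell adhesion molecules: Ceacam1, Alcam, Mcam, Bcam, L1cam, Icam1, Nectin1, Nectin2 and Nectin3, which carry extracellular immunoglobulin-like domains, and Epcam, which belongs to a separate family. They were taken by symbol from a table of 22322 genes, and each symbol matched 1 row. The set was chosen by gene family and partly selected on the Ad-Cre against Ad-GFP fold changes of Ceacam1 and Alcam, both already known to be lower in Ad-Cre. All differences in level of these 10 genes are therefore a description, given as sizes and calls with no p-value. The lengths implied by counts and FPKM, given further below, did not enter the choice and carry p-values.

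The RNA came from mouse kidney cells labelled as primary renal fibroblasts, in 8 libraries. Of these, 4 are wild type and received an adenovirus carrying GFP (Ad-GFP), and 4 received an adenovirus carrying Cre recombinase (Ad-Cre) and are labelled as suv39h1 knockdown. Every culture in both groups, controls included, had TGF-β at 5 ng/ml for 48 hours, so there is no unstimulated group. The labels give neither a floxed allele, nor the age of the animals, nor whether replicates came from separate cultures, so the spread between libraries may be technical.

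Immunoglobulin-like adhesion molecules hold cells together by binding like molecules or partner receptors on a neighbouring cell, or ligands in the matrix, and many signal through short cytoplasmic tails. Nectins assemble at adherens junctions with cadherins and bind afadin inside the cell. EpCAM is a transmembrane glycoprotein of simple epithelia, including collecting duct and other tubule segments of the kidney. Suv39h1 writes trimethylation on lysine 9 of histone H3, a mark of constitutive heterochromatin.

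The sequences just upstream of the start sites of Ceacam1 and Epcam are shown because these members had the lowest and the highest fold change. RefSeq (GRCm38.p6) gave windows for 9 of the 10 members, and Nectin1 was not among them. Each line holds the 250 bases before the start, read 5′ to 3′ on the strand of the gene, and capitals mark GGGCGG (a GC box), CAGGTG (an E-box) or CACGTG (another E-box), searched on both strands.
Ceacam1, chr7:25477626-25477875, minus strand: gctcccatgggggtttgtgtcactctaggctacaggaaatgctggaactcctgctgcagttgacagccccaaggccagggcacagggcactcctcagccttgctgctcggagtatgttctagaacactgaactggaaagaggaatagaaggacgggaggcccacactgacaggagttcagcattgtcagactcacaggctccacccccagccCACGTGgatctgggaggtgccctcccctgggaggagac
Epcam, chr17:87635729-87635978, plus strand: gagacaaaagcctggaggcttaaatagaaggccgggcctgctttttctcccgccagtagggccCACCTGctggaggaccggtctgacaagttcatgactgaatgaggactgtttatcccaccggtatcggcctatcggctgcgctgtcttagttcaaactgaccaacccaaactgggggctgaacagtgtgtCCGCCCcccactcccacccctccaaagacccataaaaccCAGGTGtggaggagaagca
The Ceacam1 window held 3 CpG dinucleotides, no GGGCGG and no CAGGTG, and had 1 CACGTG starting 38 bases before the start. The Epcam window held 8 CpG dinucleotides, 1 GGGCGG at 58 bases and CAGGTG at 187 and 19 bases. The windows of Alcam, Bcam, Mcam and Nectin3 held 22, 22, 25 and 30 CpG dinucleotides, against a median of 6 over 32851 such windows, so Ceacam1 had the fewest of the members found. GGGCGG occurred in 32.7% of all windows, CAGGTG in 17.2% and CACGTG in 6.02%. The Alcam window is not printed because it lies within an annotated exon of a longer GENCODE M21 transcript.

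The libraries held 15879244 to 23940043 counts, and the shallowest Ad-Cre library (18006938) exceeded the deepest of Ad-GFP (17930632). The targeted gene Suv39h1 was at 28.96, 27.82, 29.32 and 29.58 counts per 1000000 counts of the TMM-scaled library total (CPM) in Ad-GFP. In Ad-Cre it was at 25.29, 22.75, 21.63 and 22.56 CPM. The groups did not overlap, and Suv39h1 fell (log2 fold change -0.33 ± 0.056, SE, n = 4 per group; edgeR adjusted p = 3.293e-05), to 79.6% of Ad-GFP at the level of the whole gene. The length implied by its counts and FPKM was 2882 to 2936 bases in Ad-GFP and 2773 to 2830 bases in Ad-Cre, with no overlap, and no exon-level values were used that would show whether the remaining transcript is intact. Epithelial markers were abundant for cells labelled as fibroblasts: 15 of them summed to 6028 to 6221 CPM in Ad-GFP and 5514 to 5630 CPM in Ad-Cre, with 7 higher and 7 lower. The 10 fibroblast markers summed to 484 to 527 and 311 to 367 CPM, and 4 of 7 tested were lower. Of these, the collagen genes Col1a1 and Col1a2 were at 207 and 194 CPM and Col3a1 at 54.4 CPM on average in Ad-GFP, while Lum, Fap and Tcf21 were each under 1 CPM in both groups. Endothelial markers summed to 176 to 179 CPM in Ad-GFP and 80.7 to 91.3 CPM in Ad-Cre, with 14 of 14 lower. Macrophage and leukocyte markers summed to 251 to 289 and 228 to 240 CPM (8 of 11 tested lower, Cd3e at 0), and mural markers to 120.1 to 129 and 102.3 to 105 CPM (3 of 5 tested lower). Over all 13337 genes tested, 19.8% were called higher and 20.5% lower by edgeR at an adjusted p under 0.05. In such bulk samples, fewer cells of a type and less RNA per cell cannot be told apart.

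All 10 adhesion genes had enough counts to be tested. By edgeR's quasi-likelihood test at an adjusted p of 0.05, 2 were called higher in Ad-Cre (Epcam and Bcam), 3 lower (Ceacam1, Alcam and Mcam) and 5 were not called, where 40.3% of all 13337 genes tested were called, 19.8% higher and 20.5% lower. The CPM of the groups did not overlap for the same 5 members, against 35.4% of all genes tested. Their median log2 fold change was -0.01, and that of all genes tested was 0.00. The 5 calls differed widely in size, from 32.3% of the Ad-GFP level for Ceacam1 to 118.0% for Epcam. The values in each library are in the plot of CPM by gene, and the fold changes in the plot against the spread of all genes.

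**Figure D1:**
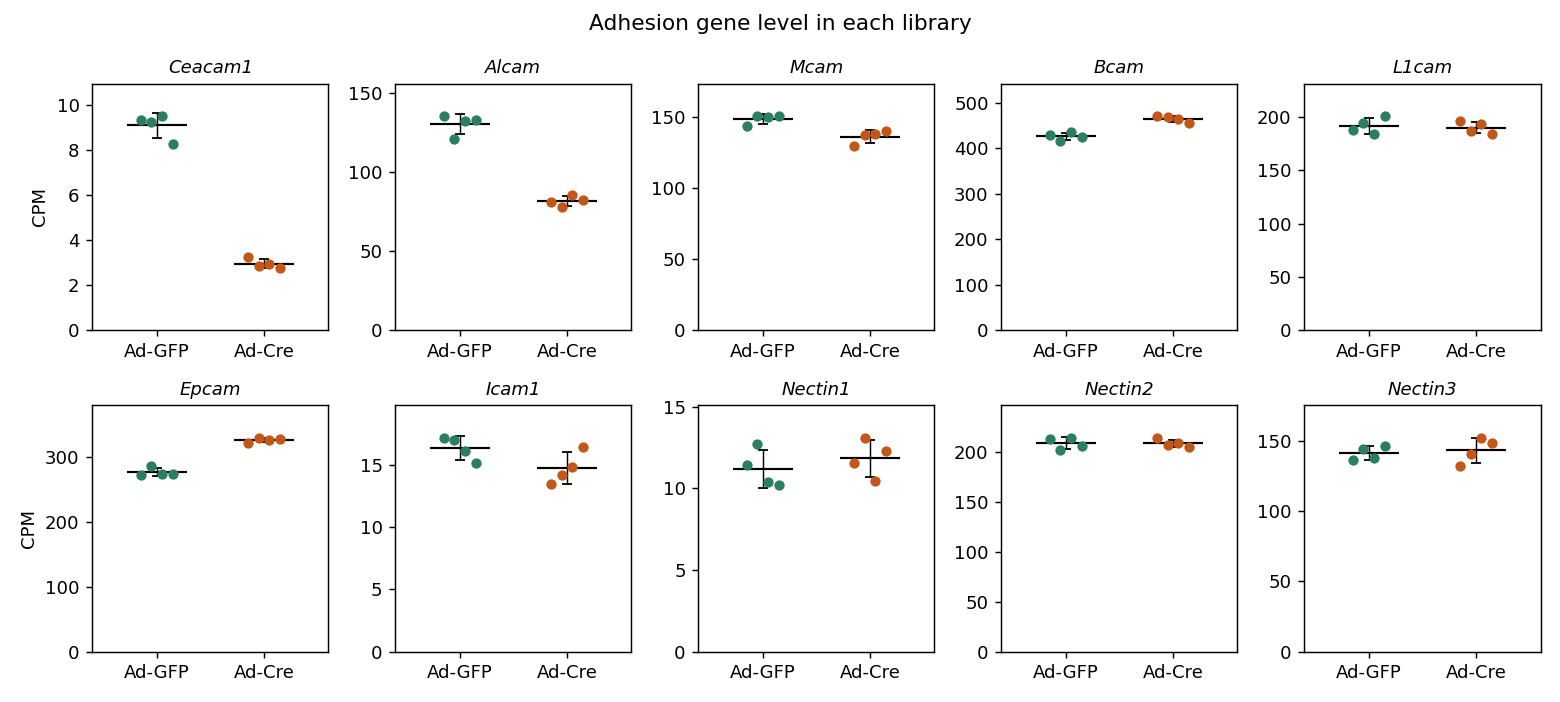
CPM of each of the 10 adhesion genes in the 4 Ad-GFP and 4 Ad-Cre libraries (points), with the group mean (line) and SD (bar), each panel starting at 0. The groups do not overlap for Ceacam1, Alcam, Epcam, Bcam and Mcam, and overlap for the other 5.

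**Figure D2:**
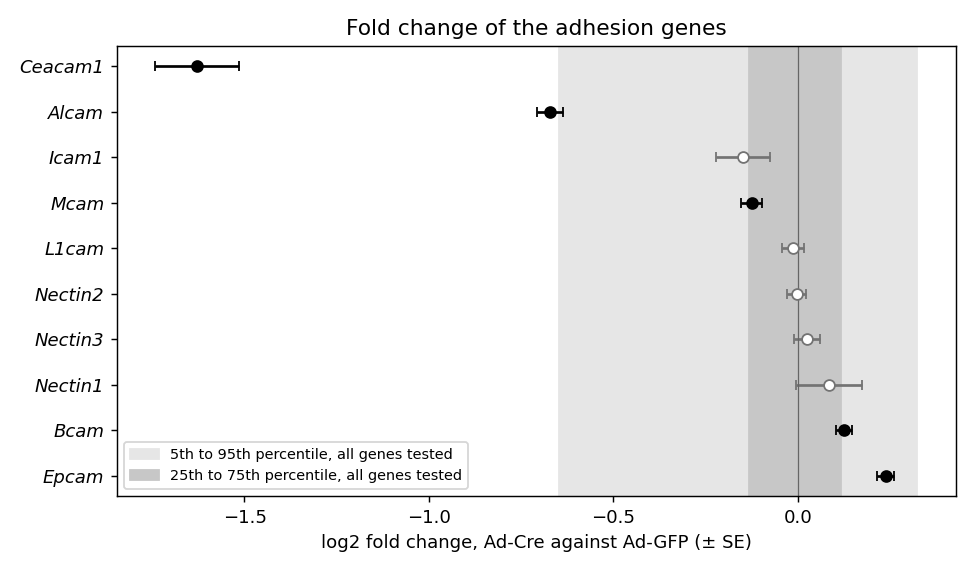
log2 fold change of each gene with its SE, filled where called by edgeR and open where not, over bands for the middle of all 13337 genes tested. Ceacam1 (-1.63) and Alcam (-0.67) lie below the 5th percentile of all genes (-0.65), and the other 8 lie inside the band up to the 95th percentile (0.32).

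Ceacam1 (ENSMUSG00000074272, chromosome 7, 25461707 to 25477603, minus strand, GRCm38) encodes a homophilic adhesion molecule with inhibitory tyrosine motifs in its long tail, found on epithelia, endothelium and leukocytes. Ad-GFP replicates 1 to 4 had 9.35, 9.24, 9.52 and 8.25 CPM. Ad-Cre replicates 1 to 4 had 3.25, 2.86, 2.93 and 2.76 CPM. The lowest Ad-GFP library was well above the highest Ad-Cre library. The log2 fold change was -1.63 ± 0.11 (SE, n = 4 per group). It was the member with the largest change and was among the 3 least abundant. The raw counts were 132 to 167 in Ad-GFP and 58 to 68 in Ad-Cre, although the Ad-Cre libraries were the deeper ones. The listed paralogs in the mouse Ceacam family had almost no reads: Ceacam2, the closest copy, had 3 counts over all 8 libraries, and Ceacam9 and Ceacam16 had 0. Reads shared by Ceacam1 and Ceacam2 could be assigned to either gene, and the counting rule is not given. The summed endothelial markers were also lower in Ad-Cre, as given above, and their part in the level of Ceacam1 was not tested.

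Alcam (ENSMUSG00000022636, chromosome 16, 52248996 to 52454074, minus strand) encodes CD166, which binds itself and the lymphocyte receptor CD6. Its level was 135.83, 121.29, 132.33 and 132.87 CPM in Ad-GFP and 81.25, 78.18, 85.60 and 82.55 CPM in Ad-Cre. The gap between the groups was larger than the spread within either of them. The log2 fold change was -0.67 ± 0.035 (SE, n = 4 per group), or 62.7% of Ad-GFP. Cd6 itself had 8 counts over all libraries and was not tested. Over the 8 libraries the log2 CPM of Alcam and Ceacam1 had a Pearson r of 0.98, which mainly reflects that both differ between the same groups.

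Mcam (ENSMUSG00000032135, chromosome 9, 44134469 to 44142727, plus strand) encodes CD146, a receptor for laminin chains and other ligands on endothelial and mural cells. Its libraries had 143.63, 151.21, 150.36 and 150.82 CPM in Ad-GFP and 129.99, 137.30, 138.08 and 140.46 CPM in Ad-Cre. The highest Ad-Cre library was close below the lowest Ad-GFP library. Mcam was called lower on counts (log2 fold change -0.13 ± 0.029, SE, n = 4 per group) but was not called with limma on log2(FPKM + 1), at -0.09. The summed endothelial and mural markers were lower in the same libraries, and their part in this small difference was not tested. Of the mural markers 3 of 5 tested were called lower, against 20.5% of all genes tested. Notch3, the most abundant mural marker, was not called, at 104.9% of Ad-GFP.

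Bcam (ENSMUSG00000002980, chromosome 7, 19756131 to 19771016, minus strand) encodes the Lutheran glycoprotein, an epithelial and red cell receptor for laminin α5. Its level was 428.66, 416.69, 436.07 and 426.00 CPM in Ad-GFP and 472.06, 468.94, 465.34 and 456.32 CPM in Ad-Cre. Every Ad-Cre library was above every Ad-GFP library, and the log2 fold change was 0.13 ± 0.021 (SE, n = 4 per group). Nectin2 lies beside Bcam on the same strand of chromosome 7, at 19716644 to 19750483, and was not called.

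L1cam (ENSMUSG00000031391, chromosome X, 73853778 to 73896105, minus strand) encodes a neural adhesion molecule that is also made in the collecting duct. Its level was 187.55, 194.63, 184.17 and 201.28 CPM in Ad-GFP and 196.25, 187.01, 193.21 and 184.37 CPM in Ad-Cre. The libraries of the groups were interleaved, and the log2 fold change was -0.01 ± 0.029 (SE, n = 4 per group). Its exons share 100 bases with Arhgap4 on the same strand.

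Epcam (ENSMUSG00000045394, chromosome 17, 87635979 to 87651129, plus strand) was at 272.41, 286.00, 274.30 and 273.24 CPM in Ad-GFP. In Ad-Cre it was at 321.82, 329.95, 325.63 and 327.27 CPM. All 4 Ad-Cre libraries were above all 4 Ad-GFP libraries, and the log2 fold change was 0.24 ± 0.023 (SE, n = 4 per group). Of the 15 epithelial markers 7 rose and 7 fell, where 19.8% of all genes tested were called higher and 20.5% lower. Among those that rose, Cdh16 went from 274 ± 7.7 to 336 ± 14 CPM and Pax2 from 36.8 ± 1.6 to 47.2 ± 3.7 CPM, both without overlap (SD, n = 4). The most abundant markers were lower in Ad-Cre. Krt8, a keratin of simple epithelia, fell from 1504 ± 37 to 1168 ± 18 CPM, and the claudin gene Cldn4 from 1141 ± 29 to 1099 ± 27 CPM with overlapping groups (SD, n = 4).

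Icam1 (ENSMUSG00000037405, chromosome 9, 21015985 to 21028817, plus strand) encodes the cytokine-induced ligand of the leukocyte β2 integrins. Its level was 17.20, 16.98, 16.08 and 15.13 CPM in Ad-GFP and 13.43, 14.21, 14.85 and 16.45 CPM in Ad-Cre. Ad-Cre replicate 4 was above the 2 lower Ad-GFP libraries, so the groups overlapped. Icam1 was not called (log2 fold change -0.15 ± 0.073, SE, n = 4 per group). Without Ad-Cre replicate 4 it was called lower, at -0.21. Its exons share 511 bases with the antisense gene Gm47079, and the sources used here do not say if the counting used strand.

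The nectins showed no called difference. Nectin2 was the most abundant of them, at 212.55, 201.88, 214.13 and 206.03 CPM in Ad-GFP and 213.26, 206.36, 208.88 and 204.71 CPM in Ad-Cre (log2 fold change 0.00 ± 0.026, SE, n = 4 per group). Nectin3 (chromosome 16, 46387706 to 46498525, minus strand) was at 136.06, 144.24, 138.07 and 146.44 CPM in Ad-GFP and 132.17, 140.63, 152.31 and 148.39 CPM in Ad-Cre (log2 fold change 0.02 ± 0.035). Nectin1 (chromosome 9, 43743984 to 43807461, plus strand) was at 11.41, 12.72, 10.40 and 10.19 CPM in Ad-GFP and 11.53, 13.12, 10.43 and 12.32 CPM in Ad-Cre (log2 fold change 0.08 ± 0.089). For each of these genes the libraries of the groups overlapped. The makeup of the family was also close between the groups. Of the summed FPKM (fragments scaled to transcript length and library size) of Nectin1 to Nectin4, Nectin2 held 59.7% ± 1.4 in Ad-GFP and 59.9% ± 1.6 in Ad-Cre (SD, n = 4). Nectin3 held 30.6% ± 0.93 and 30.5% ± 1.5, and Nectin1 1.48% ± 0.14 and 1.54% ± 0.10.

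Levels can be compared between genes per length, on the FPKM that the authors deposited. In Ad-GFP, Bcam was highest at 177.0 ± 3.2 FPKM (SD, n = 4), then Epcam at 159.6 ± 3.7 and Nectin2 at 83.8 ± 2.3, and the ranges of these 3 did not overlap. Mcam (52.4 ± 1.9), Alcam (48.6 ± 3.5), Nectin3 (43.0 ± 1.2) and L1cam (42.4 ± 1.9) followed, each overlapping the next. Icam1 (6.49 ± 0.37), Ceacam1 (3.20 ± 0.41) and Nectin1 (2.08 ± 0.18) were lowest and did not overlap. In Ad-Cre, Epcam (185.2 ± 2.0) overlapped Bcam (190.5 ± 2.8). Alcam, at 29.1 ± 0.95 FPKM, stood below L1cam, and Ceacam1, at 1.10 ± 0.099 FPKM, was the lowest member, below Nectin1 at 2.14 ± 0.13. The order depends on the length used. With counts per kilobase of all annotated exons, chosen after seeing the data, 5 of the 10 members kept their Ad-GFP rank, and L1cam moved from the seventh to the fifth place while Ceacam1 moved below Nectin1.

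**Figure D3:**
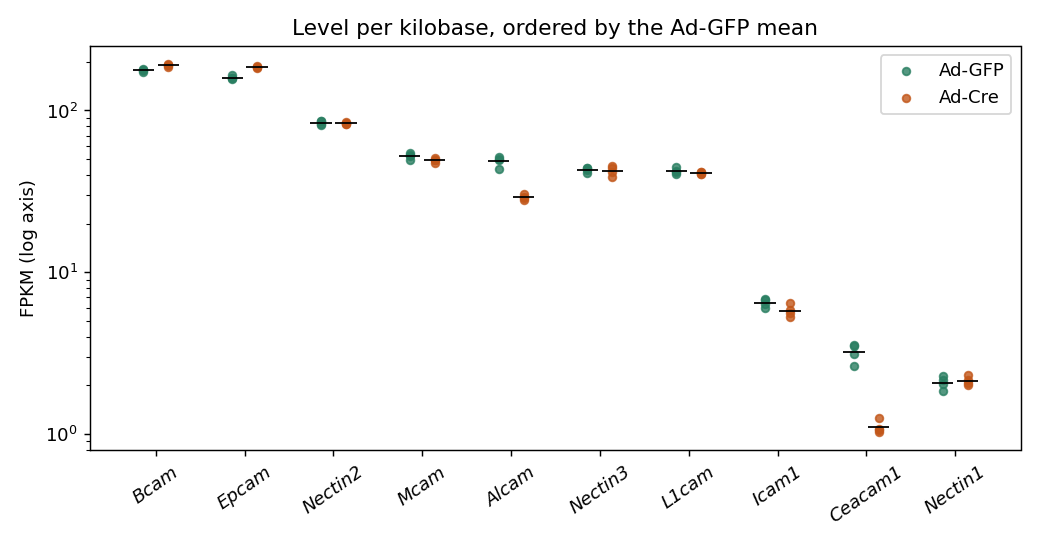
Deposited FPKM on a log axis for the 10 genes, ordered by their Ad-GFP mean, with the 4 libraries of each group as points and the mean as a line. Bcam and Epcam lead at 177.0 and 159.6 FPKM in Ad-GFP, and Alcam and Ceacam1 are the genes whose place in the order is lower in Ad-Cre.

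The count and the FPKM of a gene together imply the length by which the authors divided. That length did not enter the choice of the genes, and it differed between libraries for some of them. For Mcam it was 2799 to 2909 bases in Ad-GFP and 2729 to 2778 bases in Ad-Cre, a difference of -4.11% (two-sided exact permutation p = 0.0286 with n = 4 per group, the smallest this design allows, 10 genes computed). For Nectin2 it was 2496 to 2514 and 2471 to 2493 bases, a difference of -0.96% (exact permutation p = 0.0286). Icam1 gave the same exact permutation p = 0.0286 with a difference of only -0.08%. The deposited FPKM are rounded, which at the level of Icam1 can shift the implied length by a similar amount, so nothing is read from it. The implied lengths of the groups did not overlap in 4.93% of the 7605 genes that had over 300 counts in each library, a set that holds Mcam and Nectin2 but not Icam1. Ceacam1 varied most within a group after Nectin1, from 2692 to 3137 bases in Ad-GFP and 2539 to 2758 in Ad-Cre (exact permutation p = 0.171). On FPKM Ceacam1 was at 34.5% and Alcam at 59.9% of Ad-GFP, and Mcam at 94.1% with overlapping groups. The table gives 1 total per gene, so which transcripts lie behind these lengths was not determined.

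Of 111 related genes in 8 lists by family or known partner, 80 had enough counts to be tested, and 22 rose and 30 fell in Ad-Cre (edgeR), where 40.3% of all genes tested were called. On log2(FPKM + 1) limma called 8 higher and 23 lower of 74 tested, where it called 1353 higher and 2026 lower of all 11679 genes it tested. The median log2 fold change of the related genes by edgeR was -0.03. Adjusted p-values below are edgeR's, over all genes tested.

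Among nectins and nectin-like molecules, 1 of 5 tested rose and 1 fell. Cadm1, a nectin-like molecule of epithelial junctions, rose from 75.9 ± 1.9 to 88.7 ± 2.7 CPM (SD, n = 4; adjusted p = 4.749e-06). Pvr, the poliovirus receptor homolog and a partner of Nectin3, fell to 92.7% of Ad-GFP (adjusted p = 0.0283), a call lost without Ad-GFP replicate 1 (adjusted p = 0.121), Ad-Cre replicate 1 (0.0873) or Ad-Cre replicate 4 (0.0542). Nectin4 was at 36.7 ± 1.9 and 36.5 ± 1.5 CPM and Cadm4 at 104.0% of Ad-GFP, neither called. With limma on log2(FPKM + 1) the Cadm1 difference was not called (adjusted p = 0.104).

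In the JAM and CTX family 3 of 9 tested rose and 2 fell. Esam, an endothelial junction molecule, was at 3.96, 5.20, 4.26 and 5.13 CPM in Ad-GFP and 2.24, 2.10, 1.92 and 2.54 CPM in Ad-Cre, with no overlap (log2 fold change -1.07 ± 0.16, SE, n = 4 per group; adjusted p = 4.105e-06). Vsig10 rose to 118.1% and Igsf11 fell to 83.9% of Ad-GFP. Cxadr, the coxsackievirus and adenovirus receptor and the most abundant gene of the list, was at 292.3 ± 2.0 and 308.5 ± 6.3 CPM (SD, n = 4; adjusted p = 0.00688). The Cxadr call was lost after thinning to equal depth (adjusted p = 0.0602) and on log2(FPKM + 1) (0.787).

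Of the L1, NCAM and contactin genes 3 of 9 tested rose and 3 fell. The contactin gene Cntn2, which encodes a GPI-anchored binding partner of L1-type molecules in neurons, was at 45.24, 52.93, 47.22 and 50.96 CPM in Ad-GFP and 78.06, 81.25, 84.06 and 75.85 CPM in Ad-Cre. The groups were far apart, at 162.6% of Ad-GFP (log2 fold change 0.70 ± 0.045, SE, n = 4 per group; adjusted p = 1.892e-12), the largest rise among the 80 related genes tested. The neural adhesion gene Ncam1 rose to 114.5% (adjusted p = 0.000478; 0.138 on log2(FPKM + 1)), and Nrcam, of the L1 family, fell from 2.65 ± 0.29 to 1.44 ± 0.28 CPM (SD, n = 4; adjusted p = 0.000824). Of the ICAM, VCAM and PECAM list only Pecam1 and Vcam1 had enough counts. Pecam1, a marker of endothelium, fell to 49.7% (adjusted p = 5.083e-12). Vcam1, the cytokine-induced partner of integrin α4, was at 76.4% with overlapping groups (adjusted p = 0.0308), a call lost in 4 of the 8 fits that left out 1 library: without Ad-GFP replicate 2 (adjusted p = 0.0834) or 3 (0.0934), or Ad-Cre replicate 1 (0.103) or 3 (0.115). Thinning also ended it (0.0902). The summed endothelial markers, which include Esam and Pecam1, were lower in these libraries, and their part was not tested.

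Among the EpCAM partner and protease genes 6 of 15 rose and 1 fell. St14, which encodes matriptase, a membrane serine protease that can cleave EpCAM, was at 330.04, 333.62, 337.60 and 336.02 CPM in Ad-GFP and 404.80, 397.53, 415.26 and 393.20 CPM in Ad-Cre (log2 fold change 0.27 ± 0.022, SE, n = 4 per group; adjusted p = 3.479e-10). The groups were well separated. Its inhibitor gene Spint1 rose to 108.2% and the sheddase gene Adam10 to 110.9%, while Fhl2, whose product can bind the released EpCAM tail, fell to 87.1%. The more abundant inhibitor gene Spint2 was not called, at 334.2 ± 5.6 and 331.2 ± 4.7 CPM (SD, n = 4; adjusted p = 0.677). The EpCAM-binding claudin gene Cldn7 was at 126.9 ± 3.1 and 131.9 ± 4.2 CPM (SD, n = 4) and was not called (adjusted p = 0.141).

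Of the extracellular ligands and receptors 2 of 16 tested rose and 9 fell. The galectin genes Lgals1, Lgals3 and Lgals9 were at 63.1%, 68.4% and 49.5% of Ad-GFP (adjusted p = 6.798e-15, 1.797e-11 and 4.599e-09). Lgals9, a galectin that binds glycans on immune receptors, was at 10.21, 9.79, 10.64 and 10.13 CPM in Ad-GFP and 4.70, 5.30, 4.81 and 5.30 CPM in Ad-Cre, with no overlap. Lamb1, encoding laminin β1, rose to 115.1% (adjusted p = 2.557e-09). Lama5, the laminin chain that Bcam binds, was at 93.8% with overlapping groups (adjusted p = 0.00837; 0.0812 on log2(FPKM + 1)). Lama4, a vascular laminin chain, fell to 70.1% (adjusted p = 1.536e-05). Itgal, which encodes the leukocyte integrin chain that binds Icam1, fell to 55.9% (adjusted p = 4.28e-06). The summed macrophage and leukocyte markers were lower in these libraries too, and their part in the level of Itgal was not tested. Of those markers 8 of 11 tested were called lower, against 20.5% of all genes tested. Ptprc (87.2% of Ad-GFP) and Cd14 (107.4%) were among the 3 not called. Itgb2, the β2 chain that pairs with Itgal, was not called, at 12.8 ± 1.8 and 12.9 ± 0.39 CPM (SD, n = 4; adjusted p = 0.960), nor was Itgam, another chain that binds Icam1, at 94.6% of Ad-GFP (adjusted p = 0.514). Itgax, a further integrin chain of the list and itself one of the leukocyte markers, fell to 71.2% without overlap (adjusted p = 1.703e-05).

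Of 24 tested cytoplasmic partners 7 rose and 12 fell, mostly by little. The actin crosslinkers Actn4 and Actn1 fell to 88.6% and 90.8%, and the p120 catenin gene Ctnnd1 and the moesin gene Msn rose to 111.0% and 108.8% (adjusted p from 3.537e-08 for Actn4 to 5.098e-06 for Msn). Afdn, encoding the nectin-binding protein afadin, was at 303.95, 302.87, 308.88 and 309.39 CPM in Ad-GFP and 340.51, 332.10, 334.76 and 332.39 CPM in Ad-Cre (log2 fold change 0.13 ± 0.022, SE, n = 4 per group; adjusted p = 2.929e-05). The libraries were separated on counts, but on log2(FPKM + 1) the Afdn difference was not called (adjusted p = 0.440). Ank2, an ankyrin of the family that anchors L1-type molecules to spectrin, fell to 70.4% (adjusted p = 8.018e-06). The more abundant ankyrin gene Ank3 rose from 88.5 ± 3.3 to 96.3 ± 2.6 CPM without overlap (SD, n = 4; adjusted p = 0.00471). Ank2 and Ank3 thus moved in opposite directions.

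**Figure D4:**
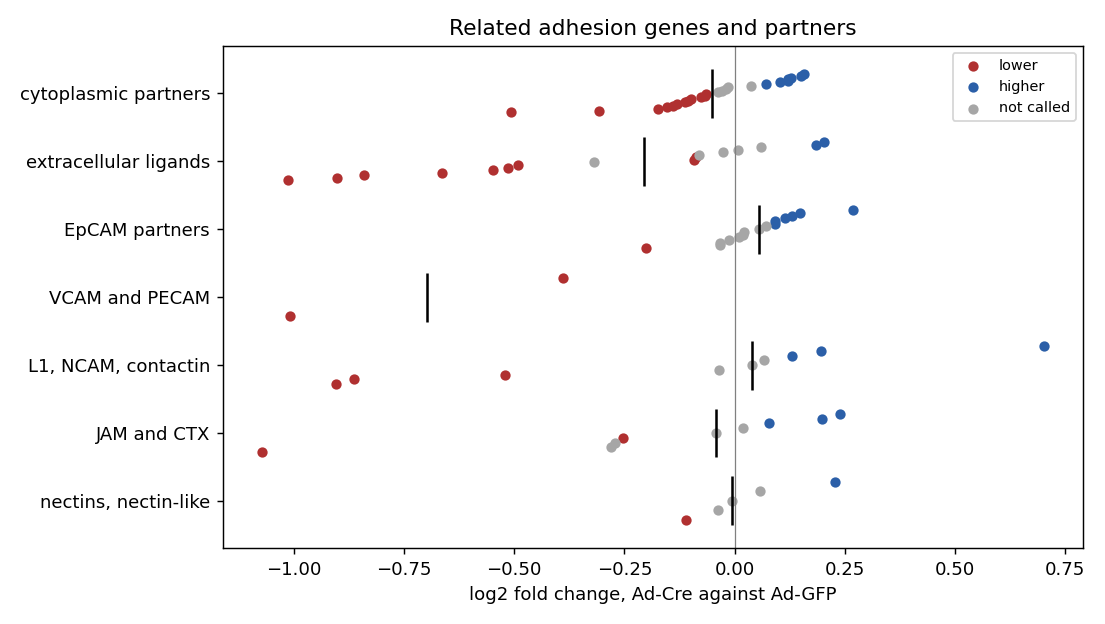
log2 fold change of the 80 related genes tested, 1 row for each list with tested genes, coloured by edgeR's call, with the list median as a black line. Esam (-1.07), Lgals9 (-1.01) and Pecam1 (-1.01) are farthest to the left and Cntn2 (0.70) farthest to the right.

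The genes whose log2 CPM followed Ceacam1 most closely over the 8 libraries, among 10691 others with a mean of at least 5 CPM, were Haus8, Tuba1a, Tuba1b, Fabp3 and Piezo2, with a Pearson r of 0.996 to 0.998. Haus8, an augmin subunit of the spindle, was at 31.3% of Ad-GFP, near the 32.3% of Ceacam1, and the α-tubulin genes Tuba1a and Tuba1b were at 79.2% and 68.4%. For Alcam they were Fbxw9, Pmpca, Tubb4a, Tubb4b and Esm1, with r of 0.995 to 0.998. The β-tubulin genes Tubb4a and Tubb4b were at 35.9% and 80.9% of Ad-GFP. All these correlations are dominated by the difference between the groups: 516 genes had an r over 0.95 with Ceacam1 and 435 with Alcam.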

How the data were processed

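RNA-seq libraries of 8 samples, 4 Ad-GFP and 4 Ad-Cre, were analysed from 1 table. Per the file headers, the authors deposited whole-number read counts per Ensembl gene, the FPKM of the same libraries, their group mean FPKM, a log2 fold change of these means, and p-values with an FDR, which were not used here. The submitters' processing notes name GRCm38 and mm10. The sources used here do not give the aligner, counter, strand setting or annotation release. Coordinates are from GENCODE M21 (GRCm38), with 22267 of 22322 gene IDs found.

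Counts were tested with edgeR 4.0.16 (R 4.3.3): filterByExpr, TMM, quasi-likelihood F-test, Benjamini-Hochberg adjustment over 13337 genes, threshold 0.05. The common biological coefficient of variation was 2.89%. The fit was tested on simulated data with 200 changed genes, far fewer than the 5370 called here. That test does not cover changes in so many genes. CPM are counts scaled to a common total with TMM factors. The implied length is the count divided by the FPKM and the library total. Replicates of a group differed beyond counting error (chi-square per degree of freedom 1.82 to 3.34).

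The 10 members and all lists were chosen with earlier results of these data known. Named genes are the members, Suv39h1, the 3 of smallest p and the most abundant gene of each list, and the 5 closest in pattern to Ceacam1 and Alcam. Nectin4, Afdn, Cldn7, Spint1, Spint2, Lama4, Lama5, Lgals9, Itgal, Itgb2, Itgam, Itgax, Ank2, Ank3 and the untested genes named were chosen after their values were seen. Marker genes (Col3a1 among them) were named for their abundance or near absence, except Cdh16 and Pax2, which were named after they were seen to rise. Thy1, Pdgfra, Pdgfrb, Dcn, Ptprc and Cd14 were also named after their values were seen. Alternatives were RLE and upper-quartile factors, no filter, a filter of 5 CPM, DESeq2 1.42.0, limma-voom (limma 3.58.1), a replicate block, leaving out each library, thinning to 15879244 counts, and limma on log2 FPKM after adding a pseudocount of 1 or 0.1, keeping genes whose mean was 1 FPKM or more. One related gene is counted in its list and is not reported here.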

Additional observations from a re-analysis of the deposited data

Results flagged for a closer look

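In 128 groups of 4 values that were screened for 1 library far from the other 3, which chance alone does in about 1 in 20, the following stood apart. Mcam was at 143.63 CPM in Ad-GFP replicate 1, below 150.36 to 151.21 CPM in the others. Epcam was at 286.00 CPM in Ad-GFP replicate 2, above 272.41 to 274.30 CPM. Igsf11 was at 24.29 CPM in Ad-Cre replicate 1, below 26.46 to 26.83 CPM, and Fhl2 at 102.04 CPM in Ad-GFP replicate 4, above 96.85 to 97.64 CPM. The implied length of Nectin1 was 4752.30 bases in Ad-GFP replicate 4 against 5626 to 5659 bases in the other 3, and 5018.49 bases in Ad-Cre replicate 3 against 5642 to 5663 bases, so its FPKM in those libraries is higher relative to its count. None of these libraries set a call of the gene it belongs to.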

How the results depend on the processing

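Ceacam1, Alcam, Bcam and Epcam kept their direction and call in all 18 alternatives. These alternatives reuse the same libraries, in which the fall of Ceacam1 and Alcam was already known, so they vary the processing and do not test the fall. Ceacam1 ranged in log2 fold change from -1.84 to -0.99, the smallest size being on log2(FPKM + 1), where the pseudocount compresses low genes, and Alcam from -0.74 to -0.65. Mcam kept its call except on log2(FPKM + 1) and log2(FPKM + 0.1), at -0.09 in both. Genes near 0 changed sign without a call. With 1 library left out, L1cam ranged from -0.0340 to 0.0098, Nectin2 from -0.0184 to 0.0084, Nectin3 from -0.0051 to 0.0574, Nectin4 from -0.0400 to 0.0208, Itgb2 from -0.0846 to 0.0730 and Itgam from -0.1333 to 0.0050. Itgb2 was at -0.0133 with upper-quartile factors, -0.0089 with the filter of 5 CPM, -0.0131 after thinning, and -0.0536 and -0.0614 on the FPKM scales. Nectin2 was at 0.0035 with no filter, and Nectin3 at -0.0231 and -0.0236 on the FPKM scales. Limma on log2(FPKM + 1) and log2(FPKM + 0.1) called 31 and 30 of 74 related genes tested (8 higher and 23 lower, 8 and 22), against 52 of 80. Of all 11679 genes tested on FPKM it called 3379 and 3281 (1353 higher and 2026 lower, 1311 and 1970), against 5370 of 13337. The cause was not tested. Upper-quartile factors gave 2164 higher and 3089 lower of all genes, against 2641 and 2729, and 19 and 31 of the related genes, against 22 and 30. Leaving out 1 library gave 5 to 6 members, 47 to 50 related genes and 4816 to 5084 genes called. The order by counts per kilobase of exon kept 5 of 10 ranks; the planned version with a deposited length was not run because the table gives none. With the replicate number as a block, 5 members, 52 related genes and 5390 genes were called, and Suv39h1 was at -0.33. Same-numbered libraries had correlated deviations of 0.083, 0.104, 0.008 and -0.012, and all other pairings had -0.088 to 0.067. The values of replicates 1 and 2 were thus the highest, though small. The labels' numbers were not taken as pairs in the main fit, and the block above gives the alternative. Of the 10 members, Ceacam1, Nectin1 and Icam1 rest on the fewest counts, and of the related genes named with a call Nrcam and Esam on fewer still, 304 and 503 over all libraries.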
